A study of Saccharomyces cerevisiae with 20 samples.

Results

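The *elp3 deg1* double mutant of budding yeast was compared with its wild type (WT) at the level of polyadenylated RNA, and the genes that set it apart from the other double mutants of the series were singled out. The comparison rests on the 4 libraries labelled *elp3 deg1* and the 4 labelled WT, 8 of the 20 libraries of the series. The other 12 carry the labels *urm1 deg1*, *elp3 tcd1* or *urm1 tcd1*, with 4 libraries to a label. All strains are in the BY4741 background, and *lys2* is part of the label of all of them. The strain list of the paper gives *elp3 deg1* an *SpHIS5* marker at *deg1*, which the other double mutants of the series lack there. Whether the sequenced *lys2* strains carry these markers is not stated, and such a marker and the genotype cannot be told apart. The labelled genotypes are *elp3 deg1 lys2*, *urm1 deg1 lys2*, *elp3 tcd1 lys2*, *urm1 tcd1 lys2* and, for WT, *lys2*. To these the shared background adds its own, as the strain list gives BY4741 as *MAT*a *his3Δ leu2Δ met15Δ ura3Δ* (*MET15* is called *MET17* below). Cells were grown in minimal medium (YNB) for 10 divisions and harvested at an OD600 of 1.0. The mutants were made by PCR-mediated gene deletion. Nothing in the sources says that replicates were separate cultures, so that p-values measure only the spread between these libraries, which may be technical. Libraries were numbered in blocks by strain, and a processing batch and the genotype cannot be told apart.

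The question of the study was which transcript changes the loss of different anticodon loop modifications shares, and the comparison described here asks what *elp3 deg1* does not share. *ELP3* encodes the catalytic subunit of Elongator, which starts the side chain on uridine at the wobble position of several tRNAs. *URM1* encodes the ubiquitin-like sulfur carrier that adds sulfur to the same uridine. *DEG1* encodes a pseudouridine synthase that acts on the 3′ side of the anticodon, and *TCD1* encodes an enzyme that makes the cyclic form of threonylcarbamoyladenosine next to the anticodon. The modifications of *elp3 deg1* meet in the tRNA that reads the glutamine codon CAA, and those of the *tcd1* mutants meet in the tRNA that reads the lysine codon AAA.

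The genomic sequences of the tRNAs concerned are shown because they hold the bases that separate the mutant pairs. The R64 reference annotates 9 genes of tRNA-Gln(UUG) with 3 different sequences, 7 genes of tRNA-Lys(UUU) with 1 sequence and 14 genes of tRNA-Glu(UUC) with 2 sequences. In each line the mature sequence is given as DNA without introns, with the anticodon and base 38 in capitals. Positions were counted from the anticodon, whose first base is position 34. The examples lie at chrIII:168301-168372 (minus strand, 1 of 7 identical copies), chrIV:359577-359672 (plus strand, with an intron) and chrII:645167-645238 (plus strand).
tRNA-Gln(UUG): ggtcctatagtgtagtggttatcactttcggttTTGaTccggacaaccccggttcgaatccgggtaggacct
tRNA-Lys(UUU): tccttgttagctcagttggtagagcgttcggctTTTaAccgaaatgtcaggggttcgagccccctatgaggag
tRNA-Glu(UUC): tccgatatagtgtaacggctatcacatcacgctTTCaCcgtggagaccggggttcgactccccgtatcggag
All 3 carry the uridine that Elongator and Urm1 modify, written here as the first T of the anticodon. Base 38 was T, the base that Deg1 can convert, in 9 of 9 tRNA-Gln(UUG) genes, in 0 of 7 tRNA-Lys(UUU) genes and in 0 of 14 tRNA-Glu(UUC) genes.

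Libraries held 3388420 to 3926511 counted reads in *elp3 deg1*, 3273876 to 3809078 in the other mutants and 3307869 to 3457553 in WT. A level of 3 counts, the smallest told from none, was 0.764 to 0.916 CPM (counts scaled to a common library total), and this floor covers counting error only since reads were amplified without molecular identifiers. *ELP3* had 3, 0, 1 and 0 counts in *elp3 deg1*, against 500, 425, 444 and 457 in WT, and *DEG1* had 0 counts in each *elp3 deg1* library, against 226 to 273 in WT. The labels of the 8 libraries fit these counts. *LYS2* had 71, 59, 77 and 84 counts in *elp3 deg1*, against 38, 30, 28 and 44 in WT, and which allele the *lys2* label stands for is not given in the sources used here. *LEU2*, *MET17* and *URA3* were at 0 throughout. Replicate 4 of both *tcd1* labels had counts of *ELP3*, *URM1* and *TCD1* that go against its label, and was left out of every comparison below unless stated. The one labelled *elp3 tcd1* had 345, 0 and 0 counts of these genes, the pattern of replicates 1 to 3 labelled *urm1 tcd1*. The one labelled *urm1 tcd1* had 5, 174 and 154, the pattern of replicates 1 to 3 labelled *elp3 tcd1*. Replicates 1 to 3 labelled *elp3 tcd1* still held 147 to 185 counts of *TCD1*, against 377 to 407 in WT. In replicates 1 to 3 labelled *urm1 tcd1*, genes of chromosome XI stood above the rest, with a median log2 fold change of −0.96 in *elp3 deg1* over *urm1 tcd1*, against −0.06 to 0.15 for the other chromosomes. No chromosome of *elp3 deg1* stood apart from WT, with medians of −0.09 to 0.10. Replicate 2 of *elp3 deg1* differed most from the others (chi-square per degree of freedom 1.95 to 2.51 in its pairs, 1.16 to 1.64 in the other pairs of *elp3 deg1*, and 1.14 to 1.57 in WT).

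Levels below are normalized CPM, that is CPM after scaling by TMM factors, in the order of replicates 1 to 4. Calls are from edgeR's quasi-likelihood test, 2-sided, at an adjusted p at or under 0.01 over the genes tested. Of 5824 nuclear genes, 1925 (33.1%) were higher and 1949 (33.5%) were lower in *elp3 deg1* than in WT. Direct contrasts with the other mutants hold no WT library. In them 1772 genes (30.4%) were higher and 1810 (31.1%) lower than in *urm1 deg1*, 1745 (30.0%) higher and 1708 (29.3%) lower than in *elp3 tcd1*, and 1836 (31.5%) higher and 1800 (30.9%) lower than in *urm1 tcd1*. A gene is called particular to *elp3 deg1* here when it was higher, or lower, in all 4 of these contrasts.

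This rule found 914 of 5824 genes, 526 higher (9.03%) and 388 lower (6.66%). Read the same way, *urm1 deg1* had 435 higher (7.47%) and 477 lower (8.19%), *elp3 tcd1* had 306 higher (5.25%) and 325 lower (5.58%), and *urm1 tcd1* had 819 higher (14.1%) and 554 lower (9.51%). *elp3 deg1* therefore held neither the most nor the fewest such genes. These counts are not fully alike, since the *tcd1* groups held 3 libraries each and the *deg1* groups 4. Genes of chromosome XI, which stood above the rest in *urm1 tcd1*, were not taken out of its count. In 506 of the 526 higher genes, each *elp3 deg1* library lay above every other library used, and in 349 of the 388 lower genes each lay below. These genes were picked with the same libraries, so this lack of overlap describes them and is no further evidence. The share among all genes was not counted. Most differences were modest. The median log2 fold change over WT was 0.72 for the higher and −0.61 for the lower genes, and the smallest of the 4 differences was under 0.5 in size in 377 and 285 of them. In 24 higher and 29 lower genes, the lower set including the deleted *ELP3*, all 4 differences were at least 1. Chromosome XI held 6 of the higher (1.14%) and 32 of the lower genes (8.25%), against 325 of all 5824 (5.58%). Leaving *urm1 tcd1* out of the rule gave 756 higher genes, 46 of them on chromosome XI, and 623 lower genes, 32 of them on chromosome XI. With replicate 4 of both *tcd1* labels kept under the label that its counts go against, 379 higher and 246 lower genes were particular. Several lists described below then held fewer such genes, with 8 instead of 13 for ER folding, 12 instead of 19 for the proteasome, 5 instead of 9 for glycolysis, 7 instead of 11 for mating, 15 instead of 28 for ribosome biogenesis and 1 instead of 4 for branched-chain amino acids. Of the 144 genes named here that are called particular, 44 were then no longer so, among them *HAP4*, *PUP3*, *MET13*, *INO1*, *ZWF1*, *BAR1*, *PGK1*, *TUM1*, *NCS2*, *PDC2* and *PDC5*.

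**Figure D1:**
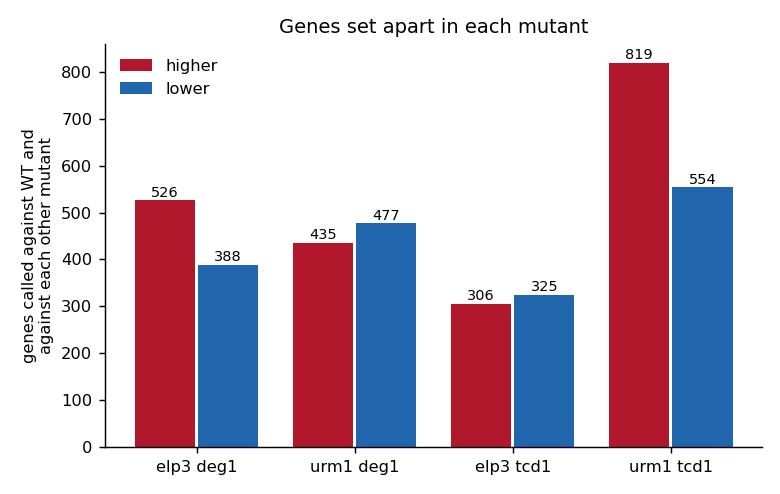
Number of genes (y axis) called in the same direction against WT and against each other mutant, for each of the 4 mutants (x axis), with genes higher in that mutant in red and lower in blue. The *elp3 deg1* bars reach 526 and 388, between those of *elp3 tcd1* (306 and 325) and *urm1 tcd1* (819 and 554). Genes of chromosome XI are included in all bars.

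When the scale was set by library totals alone, the median gene shifted by −0.141 on the log2 scale against WT, and 1489 genes were higher and 2552 lower, so that 36.8% of called genes were higher, against 49.7% with TMM factors. Particular genes then numbered 341 higher and 478 lower, so that their balance turned round. Changes below are relative to the TMM scale, on which the median gene differed by −0.005. Counts of list members below are to be read beside the shares over all genes. These shares were 33.1% higher and 33.5% lower than in WT, and 9.03% and 6.66% particular.

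Promoter stretches are shown for genes described below, each with the recognition motif of the factor known to act on that pathway in capitals. They were taken from the 500 bases before the start codon in the R64 reference, are written 5′ to 3′ on the strand of the gene, and lie at chrXIII:26181-26260 (*PHO84*, minus), chrIII:71588-71667 (*FUS1*, plus), chrV:461866-461945 (*FTR1*, minus), chrX:381127-381206 (*KAR2*, plus), chrV:349482-349561 (*PUP3*, minus) and chrXII:937304-937383 (*UTP21*, minus).
PHO84, Pho4 motif CACGTG: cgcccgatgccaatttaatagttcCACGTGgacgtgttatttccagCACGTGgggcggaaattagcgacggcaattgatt
FUS1, Ste12 motif TGAAACA: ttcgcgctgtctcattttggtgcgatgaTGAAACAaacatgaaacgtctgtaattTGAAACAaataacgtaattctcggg
FTR1, Aft1 motif TGCACCC: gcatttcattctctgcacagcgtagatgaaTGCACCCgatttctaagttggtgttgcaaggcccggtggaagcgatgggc
KAR2, Hac1 motif CAGCGTG: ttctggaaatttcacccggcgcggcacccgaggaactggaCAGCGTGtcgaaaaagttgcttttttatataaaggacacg
PUP3, Rpn4 motif GGTGGCAAA: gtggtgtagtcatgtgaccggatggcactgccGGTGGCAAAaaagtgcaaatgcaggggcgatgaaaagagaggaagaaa
UTP21, PAC motif GATGAG: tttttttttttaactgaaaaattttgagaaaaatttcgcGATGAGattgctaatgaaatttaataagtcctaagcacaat
A match is a description of the letters only, and motif shares in the lists are given beside each group. Both strands were searched, and among 5593 protein-coding genes tested the motif was present in 6.22% (Pho4), 11.8% (Ste12), 2.38% (Aft1), 2.31% (Hac1), 1.73% (Rpn4) and 28.1% (PAC).

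Among particular genes with at least 10 counts in every library of the higher group, and apart from the deleted *ELP3*, the lowest log2 fold change over WT was that of *PHO84*, the high-affinity phosphate transporter of the plasma membrane. It had 3.49, 2.28, 3.09 and 2.99 normalized CPM in *elp3 deg1*, means of 85.1 in *urm1 deg1*, 707 in *elp3 tcd1* and 591 in *urm1 tcd1*, and 102, 127, 131 and 115 in WT. The *elp3 deg1* libraries thus lay far under all others, while both *tcd1* mutants lay above WT. The log2 fold change was −5.31 over WT (SE 0.14, edgeR adjusted p = 1.4e-26) and −7.87 over *elp3 tcd1*. *PHO89*, the sodium-phosphate symporter, averaged 6.53 ± 0.961 in *elp3 deg1*, 62.5 in *urm1 deg1*, 17.0 in *elp3 tcd1*, 54.5 in *urm1 tcd1* and 55.8 ± 2.65 in WT (SD, n = 4). *SPL2*, a regulator that dampens low-affinity phosphate uptake, averaged 2.00 ± 0.664 in *elp3 deg1*, 10.2 to 26.0 in the other mutants and 17.6 ± 0.966 in WT. The acid phosphatase gene *PHO5* and the vacuolar polyphosphate polymerase gene *VTC4* were lower by less (log2 fold changes of −0.43 and −0.18). *PHO85*, the cyclin-dependent kinase that represses this pathway when phosphate is ample, was higher, with 178, 188, 187 and 174 in *elp3 deg1* and 101, 98.8, 99.6 and 89.6 in WT (log2 fold change 0.90, SE 0.05). Of the 25 genes of the phosphate starvation list, 13 were lower and 7 higher than in WT with a median of −0.21, against −0.01 over all genes, and 5 lower and 1 higher were particular. The Pho4 motif was present in 15 of the 25 (60.0%).

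Genes of mating were lower as a group, although the strain is of the mating type that expresses most of them. Receptor, pheromone and fusion genes of a-cells are turned on by Ste12, which the pheromone pathway activates. *FUS1*, needed for cell fusion, had 6.45, 8.57, 8.97 and 11.1 normalized CPM in *elp3 deg1*, means of 273 in *urm1 deg1*, 15.7 in *elp3 tcd1* and 27.1 in *urm1 tcd1*, and 78.3, 69.4, 77.7 and 72.2 in WT. The *urm1 deg1* mutant, which shares the *DEG1* deletion, lay on the other side of WT. The log2 fold change of *elp3 deg1* was −3.08 over WT (SE 0.11, edgeR adjusted p = 3.9e-22) and −4.96 over *urm1 deg1*. *BAR1*, the protease that degrades alpha factor, had 41.4, 43.7, 43.3 and 42.6 in *elp3 deg1* and 254, 273, 272 and 265 in WT, with a mean of 641 in *urm1 deg1*. *SST2*, which desensitizes the pathway, averaged 44.1 ± 3.09 in *elp3 deg1*, 449 in *urm1 deg1* and 216 ± 9.52 in WT. *PRM1* (membrane fusion), *AGA1* and *AGA2* (agglutinin subunits) had log2 fold changes of −2.87, −1.83 and −1.86 over WT.

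Of the 26 mating genes tested, 21 were lower and 2 higher than in WT with a median of −0.86, and 11 lower and 0 higher were particular, against 6.66% and 9.03% of all genes. Among those named after their values were seen, the receptor gene *STE2* averaged 151 ± 11.3 in *elp3 deg1* and 528 ± 13.5 in WT, and the a-factor genes *MFA1* and *MFA2* had log2 fold changes of −1.17 and −1.6. Genes that alpha cells use moved the other way. *STE3*, the a-factor receptor, averaged 24.1 ± 2.65 in *elp3 deg1* and 8.13 ± 2.04 in WT, and *MF(ALPHA)1*, the alpha factor gene, had a log2 fold change of 2.04. Neither was particular, and *STE3* averaged 35.6 in *urm1 deg1*. *FAR1*, the pheromone-induced inhibitor of the G1 cyclin kinase, had 17.7, 11.1, 14.5 and 17.9 in *elp3 deg1* and 52.8, 50.8, 54.0 and 50.5 in WT, with a mean of 264 in *urm1 deg1*. In bulk RNA, fewer cells that express these genes and less RNA per cell cannot be told apart. The Ste12 motif was present in 19 of the 26 promoters (73.1%).

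**Figure D2:**
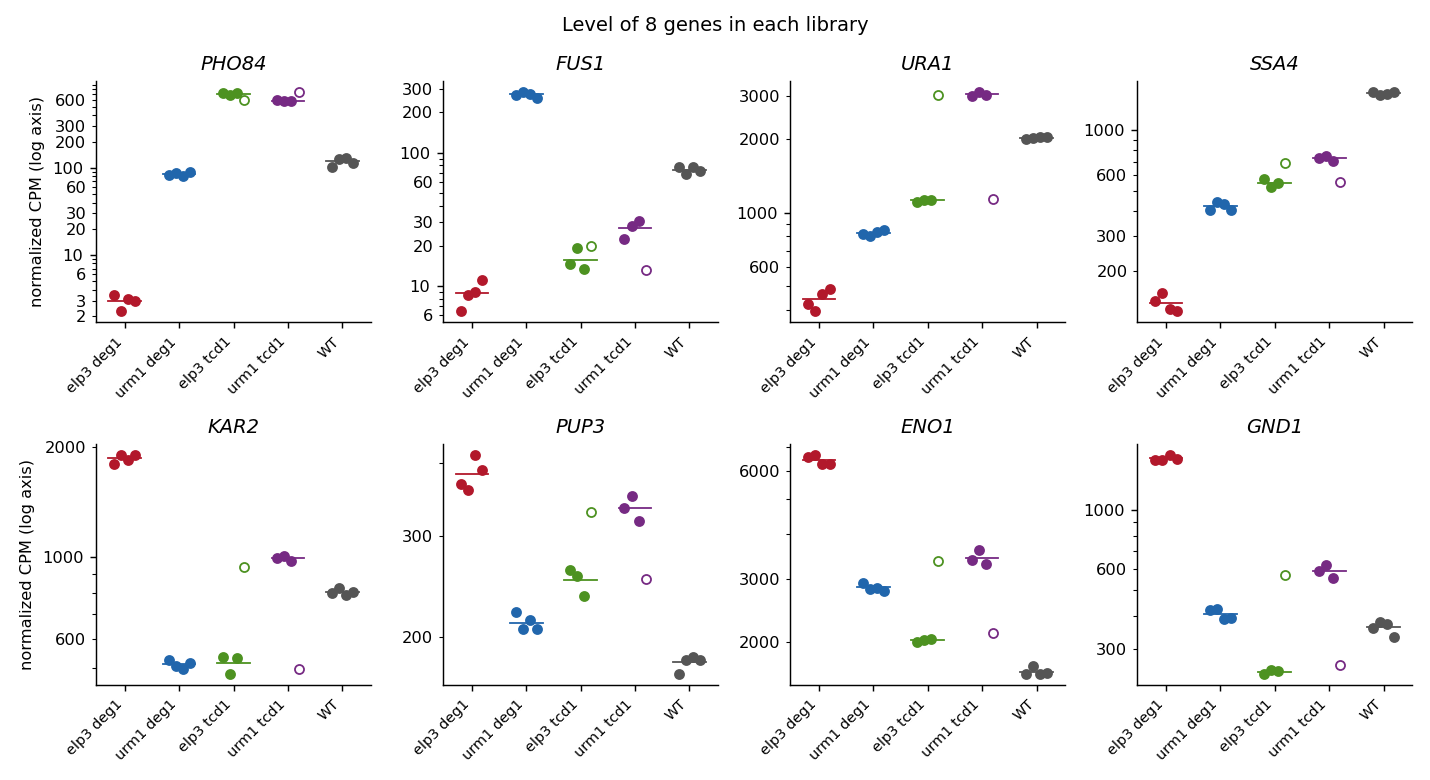
Normalized CPM (log axis) of 8 genes in each library of *elp3 deg1*, the other mutants and WT, with a point per library and a line at the group mean. Open points are replicate 4 of both *tcd1* labels, which the means leave out. *elp3 deg1* is lowest for *PHO84*, *FUS1*, *URA1* and *SSA4* and highest for *KAR2*, *PUP3*, *ENO1* and *GND1*.

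Genes of iron uptake were lower in *elp3 deg1* than in WT in 19 of 26 cases and higher in 2, with a median of −0.61. Over all genes, 33.5% were lower and 33.1% higher. Of the 26, 9 lower and 0 higher were particular, against 6.66% and 9.03% of all genes. Most genes of this list are activated by Aft1 when iron is scarce. The heme oxygenase gene *HMX1* had 17.2, 9.99, 15.5 and 16.8 normalized CPM in *elp3 deg1*, means of 56.3 to 95.3 in the other mutants, and 39.3, 45.3, 47.0 and 44.8 in WT, with a log2 fold change of −1.56 over WT (SE 0.12, edgeR adjusted p = 1.8e-13). The siderophore transporter gene *ARN2* averaged 65.7 ± 7.03 in *elp3 deg1* and 192 ± 7.84 in WT, and the low-affinity iron transporter gene *FET4* averaged 62.3 ± 6.18 and 125 ± 3.42. *CTH1* and *TIS11*, whose products degrade mRNAs of iron-using pathways, had log2 fold changes of −1.07 and −0.81, and the reductase gene *FRE5* had −1.39 at a level near the floor (1.29 ± 0.547 and 3.40 ± 1.02). Against the other mutants, 12 of the 26 were lower and 5 higher than in *urm1 deg1*, 18 lower and 1 higher than in *elp3 tcd1*, and 21 lower and 1 higher than in *urm1 tcd1*. *FTR1*, the permease of the high-affinity uptake complex and named after its values were seen, had 108, 109, 133 and 137 in *elp3 deg1*, means of 339 in *urm1 deg1*, 451 in *elp3 tcd1* and 534 in *urm1 tcd1*, and 149, 137, 138 and 140 in WT. Its partner, the multicopper oxidase gene *FET3*, also named after its values were seen, averaged 123 ± 15.5 in *elp3 deg1*, 253 in *urm1 deg1*, 459 in *elp3 tcd1*, 1332 in *urm1 tcd1* and 118 ± 10.3 in WT. *FET3* was thus under every other mutant and was not called against WT (log2 fold change 0.06, SE 0.07, edgeR adjusted p = 0.43). The Aft1 motif was present in 19 of the 26 promoters (73.1%).

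Genes of pyrimidine synthesis and uptake were lower in 8 of 13 cases and higher in 2, against 33.5% and 33.1% of all genes. Of the 13, 5 lower and 0 higher were particular, against 6.66% and 9.03% of all genes. *URA1*, dihydroorotate dehydrogenase, had 423, 396, 466 and 489 normalized CPM in *elp3 deg1*, means of 828 in *urm1 deg1*, 1123 in *elp3 tcd1* and 3057 in *urm1 tcd1*, and 2009, 2022, 2045 and 2046 in WT (log2 fold change −2.19 over WT, SE 0.04, edgeR adjusted p = 1.3e-30). *URA1* lies on chromosome XI. *URA2*, which encodes the enzyme of the committed first steps, averaged 529 ± 27.1 in *elp3 deg1*, 718 in *urm1 deg1* and 1986 ± 60.1 in WT. *URA4*, dihydroorotase, averaged 165 ± 11.7 in *elp3 deg1* and 449 ± 10.0 in WT. The uracil permease gene *FUR4* fell to 13.9 ± 1.64 in *elp3 deg1*, against 79.5 ± 3.50 in WT, and the uridine permease gene *FUI1* had a log2 fold change of −0.68. The later genes were not particular, with log2 fold changes over WT of −0.22 for *URA5*, 0.33 for *URA6* and 0.29 for *URA7*. *URA3* had 0 counts in every library, as the background lacks it.

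Among the 59 lists, that of protein folding in the endoplasmic reticulum (ER) had the highest share of particular genes. Of 17 genes, 15 were higher and 1 lower than in WT with a median of 0.75, and 13 higher and 0 lower were particular. *KAR2*, the Hsp70 of the ER lumen, had 1799, 1909, 1851 and 1902 normalized CPM in *elp3 deg1*, means of 510 in *urm1 deg1*, 515 in *elp3 tcd1* and 996 in *urm1 tcd1*, and 797, 824, 791 and 806 in WT. Both *urm1 deg1* and *elp3 tcd1* were under WT for this gene, and *elp3 deg1* was over it by 1.22 (log2 fold change, SE 0.03, edgeR adjusted p = 5.9e-27). *SIL1*, the nucleotide exchange factor of Kar2, averaged 118 ± 5.73 in *elp3 deg1*, 41.8 to 61.3 in the other mutants and 34.6 ± 1.79 in WT. The Kar2 cochaperones *SCJ1* and *JEM1* had log2 fold changes of 1.12 and 0.82. *PDI1*, protein disulfide isomerase, had 1271, 1246, 1214 and 1277 in *elp3 deg1* and 717, 721, 773 and 741 in WT, and *ERO1*, its oxidase, averaged 560 ± 20 and 421 ± 24.7. *DER1* and *HRD1*, of the pathway that sends misfolded ER proteins to degradation, had log2 fold changes of 1.07 and 0.75.

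The factor and the sensor of the unfolded protein response differed from this group. *HAC1*, the transcription factor whose mRNA is spliced on ER stress, was higher by 0.19 (SE 0.04, edgeR adjusted p = 2.4e-05), and gene counts do not separate its spliced form. *IRE1*, the kinase and nuclease that splices it, was lower, with 102, 96.2, 93.4 and 95.1 in *elp3 deg1* and 147, 156, 152 and 155 in WT. *LHS1*, a second ER Hsp70 on chromosome XI, was higher than in WT, *urm1 deg1* and *elp3 tcd1* (log2 fold changes of 0.71, 0.86 and 1.06) and lower than in *urm1 tcd1* (−0.48). The Hac1 motif searched was present in 2 of the 17 promoters (11.8%).

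Genes of the proteasome list, which holds the activator gene *RPN4* beside subunit genes, were higher in 31 of 35 cases and lower in 2. The median was 0.53, and 19 higher were particular. *PUP3*, a beta subunit of the core particle, had 369, 359, 414 and 389 normalized CPM in *elp3 deg1*, means of 212 in *urm1 deg1*, 251 in *elp3 tcd1* and 335 in *urm1 tcd1*, and 173, 183, 185 and 183 in WT (log2 fold change 1.08 over WT, SE 0.05, edgeR adjusted p = 1.7e-20). Other core subunits followed, with log2 fold changes of 0.96 for *PUP1*, 0.92 for *PRE3*, 0.79 for *PRE6* and 0.72 for *PRE8*. The single particular gene that was lower was *RPN4*, the transcription factor that activates the subunit genes and is itself degraded by the proteasome. It had 186, 214, 193 and 177 in *elp3 deg1*, means of 281 to 398 in the other mutants, and 395, 381, 373 and 395 in WT, a log2 fold change of −1.01 (SE 0.05). The mRNA of the activator and those of its known targets thus differed in opposite directions. The Rpn4 motif was present in 27 of the 35 promoters (77.1%) and in 26 of the 521 promoters of particular higher genes (4.99%).

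**Figure D3:**
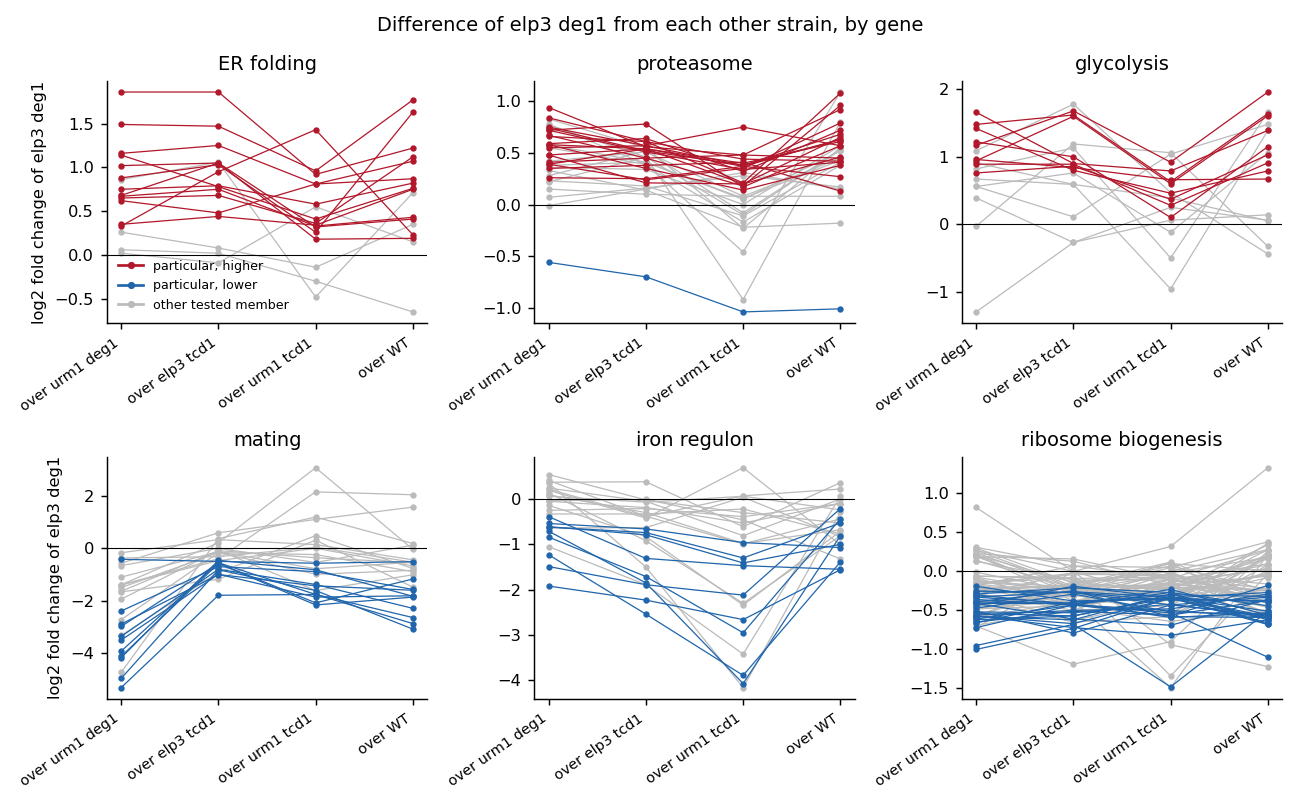
Log2 fold change of *elp3 deg1* (y axis) over each other mutant and over WT (x axis), with a line for each tested gene of 6 lists, red where particular and higher, blue where particular and lower and grey otherwise. Lines of ER folding, the proteasome and glycolysis lie mostly above 0 in all 4 contrasts, with 13, 19 and 9 in red, and 11, 9 and 28 lines of mating, iron and ribosome biogenesis are blue.

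Chaperone genes of the Hsp70, Hsp110 and J-protein families, in lists not limited to the cytosol, differed in both directions. Of the 14 Hsp70 and Hsp110 genes, 8 were lower and 4 higher than in WT, and 2 lower and 1 higher were particular. The highest log2 fold change among the 14 was 1.22, that of *KAR2* of the ER lumen. *SSA4*, the heat-inducible Hsp70, had 143, 156, 130 and 127 normalized CPM in *elp3 deg1*, means of 420 in *urm1 deg1*, 549 in *elp3 tcd1* and 727 in *urm1 tcd1*, and 1552, 1508, 1519 and 1547 in WT. All mutants were under WT and *elp3 deg1* was lowest, with a log2 fold change of −3.46 (SE 0.04, edgeR adjusted p = 2.4e-35). *BTN2*, a sequestrase that gathers misfolded proteins, had 137, 162, 132 and 150 in *elp3 deg1*, 182 on average in *urm1 deg1*, and 1368, 1325, 1312 and 1318 in WT. *SSE2*, an exchange factor of the Hsp110 kind, averaged 131 ± 14.6 in *elp3 deg1* and 237 ± 10.5 in WT. The J-proteins *APJ1*, *JJJ1* and *XDJ1* had log2 fold changes of −2.01, −1.01 and −0.97. They were the particular lower genes among 18 J-protein genes, of which 4 others were particular and higher. Of the 18, 8 were lower and 6 higher than in WT. Of 13 genes of small heat shock proteins, disaggregases and sequestrases, 10 were lower and 2 higher than in WT with a median of −0.65, but only *BTN2* was particular. The higher ones were *HSP12*, a membrane-stabilizing protein (891 ± 45.8 in *elp3 deg1*, 767 to 3811 in the other mutants and 38.9 ± 3.02 in WT), and the small heat shock protein *HSP26* (263 ± 20.1 in *elp3 deg1*, 481 to 1410 in the other mutants and 150 ± 6.22 in WT). *HSP42*, for one, averaged 305 ± 47.7 in *elp3 deg1*, 328 in *urm1 deg1* and 1113 ± 24.4 in WT, and was not called against *urm1 deg1* (log2 fold change −0.11, edgeR adjusted p = 0.12). The motif of Hsf1, the heat shock factor (GAANNTTC), was present in 8 of these 13 promoters (61.5%), against 19.3% of all. *CDC37*, a kinase-specific cochaperone of Hsp90, was higher (220 ± 11.0 in *elp3 deg1* and 168 ± 2.61 in WT).

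Glycolytic genes were higher in 13 of 18 cases and lower in 2, with a median of 1.04, and 9 higher and 0 lower were particular. *ENO1*, an enolase, had 6552, 6654, 6287 and 6264 normalized CPM in *elp3 deg1*, means of 2837 in *urm1 deg1*, 2020 in *elp3 tcd1* and 3435 in *urm1 tcd1*, and 1631, 1712, 1632 and 1637 in WT (log2 fold change 1.96 over WT, SE 0.03, edgeR adjusted p = 1.1e-33). *PGK1*, phosphoglycerate kinase, averaged 5460 ± 258 in *elp3 deg1*, 1788 to 3552 in the other mutants and 1751 ± 45.3 in WT. *TDH3*, the main glyceraldehyde-3-phosphate dehydrogenase, averaged 12269 ± 263 in *elp3 deg1*, 3848 to 7148 in the other mutants and 4686 ± 146 in WT. Reads of *ENO1* and *ENO2*, and of *TDH2* and *TDH3*, come from near-identical copies, and their split between copies is uncertain. *TPI1*, *PGI1*, *CDC19* and *PFK1* had log2 fold changes of 1.03, 0.91, 0.79 and 0.67. *HXK2*, the main hexokinase, averaged 1012 ± 21.8 in *elp3 deg1*, 296 to 740 in the other mutants and 1371 ± 52.9 in WT. It was thus lower than in WT yet higher than in each other mutant. Other isozymes of this first step of the pathway are not described here. *GCR1*, the activator of glycolytic genes, had 203, 200, 189 and 203 in *elp3 deg1* and 82.2, 86.6, 83 and 87.3 in WT, and was particular (log2 fold change 1.23, SE 0.05), while *RAP1*, which binds the same promoters, had a log2 fold change of −0.41.

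The branch from pyruvate to ethanol went the other way. *PDC5*, a pyruvate decarboxylase, had 65.3, 70.5, 58.1 and 59.5 normalized CPM in *elp3 deg1*, means of 93.5 in *urm1 deg1*, 81.3 in *elp3 tcd1* and 398 in *urm1 tcd1*, and 1145, 1150, 1149 and 1127 in WT. *PDC1*, the main isozyme, averaged 5141 ± 253 in *elp3 deg1*, 2414 in *urm1 deg1*, 5188 in *elp3 tcd1* and 13636 ± 484 in WT, and so was not particular. *PDC2*, the activator of both genes, was particular and lower by a small step (107 ± 3.22 in *elp3 deg1* and 141 ± 7.40 in WT). Of 10 genes of ethanol fermentation, 7 were lower and 2 higher, against 33.5% and 33.1% of all genes. The high-affinity hexose transporter genes *HXT6* and *HXT7*, near-identical copies whose reads cannot be split with certainty, averaged 10.9 ± 2.93 and 13.4 ± 1.49 in *elp3 deg1*, against 50.3 ± 1.65 and 66.6 ± 7.28 in WT. Of the 17 gluconeogenesis and glyoxylate cycle genes, 12 were lower and 3 higher, and 3 lower and 1 higher were particular. The particular lower ones were *CIT2* (peroxisomal citrate synthase), *MDH2* (cytosolic malate dehydrogenase) and *YAT1* (carnitine acetyltransferase). Their log2 fold changes were −1.44, −1.34 and −3.25. *NRG1*, a repressor of glucose-repressed genes, had 96.7, 119, 109 and 109 in *elp3 deg1* and 316, 299, 305 and 331 in WT. Of the 23 glucose repression regulators, 7 were lower and 6 higher than in WT with a median of 0.05. Only *NRG1* among them was particular and lower, and 3 were particular and higher.

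**Figure D4:**
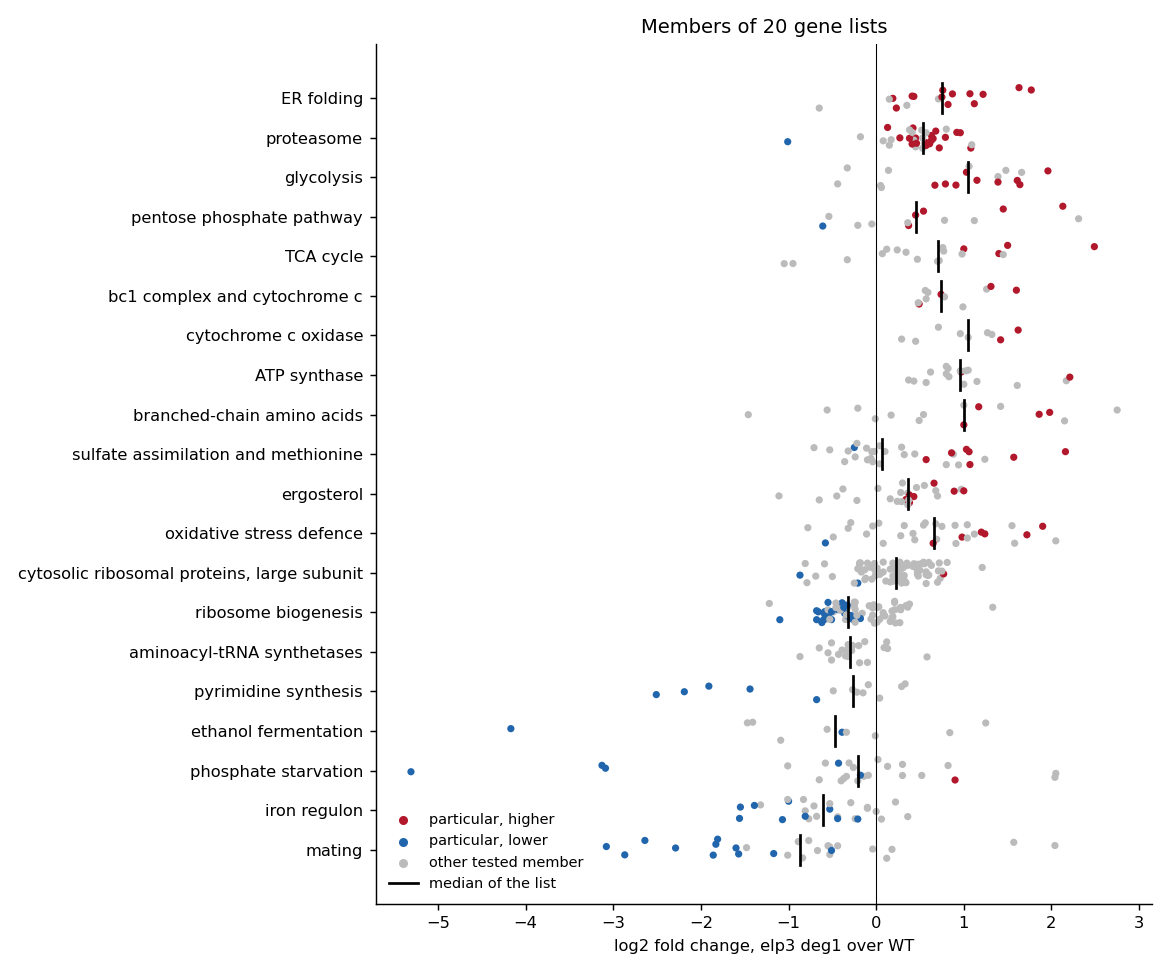
Log2 fold change of *elp3 deg1* over WT (x axis) for every tested gene of 20 lists (rows), with a point per gene and a black bar at the list's median. Red points are particular and higher, blue points particular and lower, and grey points the other tested members. Medians run from 1.05 (cytochrome c oxidase) and 1.04 (glycolysis) to −0.61 (iron regulon) and −0.86 (mating).

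The pentose phosphate pathway, whose oxidative branch is a main source of NADPH, held 5 particular higher genes of 13 and 1 lower. *GND1*, 6-phosphogluconate dehydrogenase, had 1555, 1549, 1625 and 1562 normalized CPM in *elp3 deg1*, means of 406 in *urm1 deg1*, 245 in *elp3 tcd1* and 589 in *urm1 tcd1*, and 359, 379, 372 and 332 in WT (log2 fold change 2.13 over WT, SE 0.04, edgeR adjusted p = 1.6e-31). *ZWF1*, glucose-6-phosphate dehydrogenase, averaged 1447 ± 49.9 in *elp3 deg1*, 835 to 1216 in the other mutants and 532 ± 30.6 in WT. *TAL1* (transaldolase) and *SOL3* (6-phosphogluconolactonase) had log2 fold changes of 0.54 and 0.45, and *RKI1* (ribose-5-phosphate isomerase) had −0.61. Genes that remove peroxides were higher as well. Of 32 genes of oxidative stress defence 22 were higher and 5 lower with a median of 0.66, and 6 higher were particular. The peroxiredoxin *TSA1* had 1948, 2000, 1962 and 1867 in *elp3 deg1* and 817, 816, 859 and 813 in WT. The mitochondrial peroxiredoxin *PRX1*, the thioredoxin *TRX1* and the peroxidase *HYR1* had log2 fold changes of 1.90, 1.72 and 1.2 over WT. The particular lower gene, named for that reason after its values were seen, was the glutathione transferase *GTT2* (−0.58).

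Respiratory genes were higher than in WT in *elp3 deg1* (11 of 11 of the bc1 complex and cytochrome c, 9 of 9 of cytochrome c oxidase and 17 of 17 of the ATP synthase), and 4, 2 and 2 of them were particular and higher, against 9.03% of all genes. *HAP4*, the activating subunit of the Hap complex that drives them, was particular, with 390, 448, 346 and 342 normalized CPM in *elp3 deg1*, means of 101 in *urm1 deg1*, 73.5 in *elp3 tcd1* and 223 in *urm1 tcd1*, and 160, 168, 170 and 161 in WT. The level was above WT in *elp3 deg1* and under WT in *urm1 deg1* and *elp3 tcd1*. *HAP4* lies on chromosome XI. The log2 fold change was 1.21 over WT (SE 0.06, edgeR adjusted p = 2.0e-18). In the tricarboxylic acid cycle, 14 of 18 genes were higher and 3 lower, and *ACO1* (aconitase), *LSC2* (succinyl-CoA ligase), *IDH1* and *IDH2* (isocitrate dehydrogenase) were particular. *ACO1* had 852, 934, 775 and 819 in *elp3 deg1*, 571 on average in *urm1 deg1*, and 148, 152, 151 and 152 in WT. For *IDH2* the difference from *urm1 deg1* was small (log2 fold change 0.15, edgeR adjusted p = 0.0026) beside that from WT (1.4). *CYC7* and *COX5B*, the isoforms of cytochrome c and of a cytochrome c oxidase subunit that cells use when oxygen is low, were particular at 1.31 and 1.42, whereas their aerobic counterparts *CYC1* and *COX5A* were higher by 0.56 and 0.45 and were not. *STF1*, which keeps the ATP synthase from running in reverse, averaged 120 ± 6.51 in *elp3 deg1*, 59.7 to 63.6 in the other mutants and 26.0 ± 3.78 in WT.

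In the list of sulfate assimilation and methionine, 7 genes were particular and higher and 1 lower. *MET6*, methionine synthase, had 12971, 13032, 12272 and 12216 normalized CPM in *elp3 deg1*, means of 7582 in *urm1 deg1*, 4205 in *elp3 tcd1* and 7519 in *urm1 tcd1*, and 5928, 6238, 6112 and 6055 in WT. *MET13*, which supplies methyltetrahydrofolate, averaged 1408 ± 147 in *elp3 deg1*, 296 in *urm1 deg1* and 316 ± 18 in WT (log2 fold change 2.16, SE 0.05, edgeR adjusted p = 2.1e-27). *SAM1* and *SAM2* (S-adenosylmethionine synthetases, near-identical copies), *SAH1* (adenosylhomocysteinase) and *MUP1* (methionine permease) had log2 fold changes of 1.07, 1.03, 0.86 and 1.57. Over the whole list of 30 genes, 15 were higher and 7 lower. The median was 0.07, and −0.07 at the lowest among the other scalings. *CBF1*, which binds CACGTG upstream of many of these genes and was named after its values were seen, was lower by a small step (55.7 ± 7.52 in *elp3 deg1* and 66.5 ± 4.94 in WT).

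The genes of branched-chain amino acids had a median of 1.00, with 11 of 15 higher and 3 lower, and the permeases led the particular ones. *BAP3* had 822, 936, 835 and 854 in *elp3 deg1*, means of 191 in *urm1 deg1*, 181 in *elp3 tcd1* and 149 in *urm1 tcd1*, and 451, 429, 432 and 414 in WT, so that *elp3 deg1* was above WT and each other mutant below it. *TAT1* and *BAP2* had log2 fold changes of 1.98 and 1.17 over WT, and *ILV5*, an enzyme of isoleucine and valine synthesis, had 1.86. A pair of catabolic genes was among the lowest. *ARO10*, the phenylpyruvate decarboxylase of the Ehrlich pathway, had 71.7, 67.4, 84.1 and 86.9 in *elp3 deg1*, 95.0 on average in *urm1 deg1*, 1020 in *elp3 tcd1* and 586 in *urm1 tcd1*, and 1943, 1855, 1851 and 1882 in WT. *CHA1*, the serine and threonine deaminase, had 154, 158, 170 and 162 in *elp3 deg1*, means of 629 to 1175 in the other mutants, and 2101, 2035, 2075 and 2080 in WT.

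In nitrogen catabolite repression, *elp3 deg1* stood between the other mutants and WT for several genes that a good nitrogen source keeps silent. *GAP1*, the general amino acid permease, averaged 264 ± 25.3 in *elp3 deg1*, 452 in *urm1 deg1*, 553 in *elp3 tcd1*, 1747 in *urm1 tcd1* and 51.9 ± 11.1 in WT, and *MEP2*, an ammonium permease, averaged 217 ± 16.8 in *elp3 deg1*, 300 to 773 in the other mutants and 48.6 ± 5.50 in WT. *PUT4*, *DUR3*, *UGA4* and *DAL5*, permeases for proline, urea, 4-aminobutyrate and allantoate, were lower than in each other mutant and were not called against WT (log2 fold changes of −0.07, 0.01, 0.39 and −0.10, edgeR adjusted p = 0.77, 0.89, 0.086 and 0.23). *MEP2* and these 4 permeases were chosen after their values were seen. Of the 30 genes of this list, 9 were lower than in each other mutant and 3 higher, against 9.01% and 11.1% of all genes. *GDH1*, the NADPH-dependent glutamate dehydrogenase that assimilates ammonium, was the reverse case, with 3273, 3116, 3306 and 3296 in *elp3 deg1*, means of 1482 to 1664 in the other mutants, and 697, 735, 740 and 725 in WT (log2 fold change 2.17, SE 0.03, edgeR adjusted p = 4.0e-34). *DAL3*, ureidoglycolate lyase, was higher by 2.22, and *PUT1*, proline oxidase, had −0.74.

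Lipid genes were mostly higher. In phospholipid synthesis, *INO1*, which makes inositol phosphate, had 3252, 3121, 3308 and 3255 normalized CPM in *elp3 deg1*, means of 922 in *urm1 deg1*, 696 in *elp3 tcd1* and 1939 in *urm1 tcd1*, and 1118, 1169, 1120 and 1108 in WT (log2 fold change 1.52, SE 0.03, edgeR adjusted p = 2.1e-30). *CHO2* and *OPI3*, the methyltransferases that make phosphatidylcholine with S-adenosylmethionine, averaged 1453 ± 79.3 and 2551 ± 46.8 in *elp3 deg1*, against 854 ± 40.1 and 1280 ± 37.1 in WT. *OPI1*, the repressor of these 3 genes, was particular and lower (245 ± 16.1 in *elp3 deg1* and 352 ± 9.13 in WT). Of 26 ergosterol genes, 20 were higher and 5 lower with a median of 0.36, and 7 higher were particular, led by *ERG20* (farnesyl pyrophosphate synthase) and *ERG28* with log2 fold changes of 1.00 and 0.89. *OLE1*, the fatty acid desaturase, was higher than in WT (509 ± 70.5 in *elp3 deg1* and 145 ± 7.44 in WT) but lower than in each other mutant (718 to 2055).

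Genes for making ribosomes were lower, while most genes for ribosomal proteins were not. Of 80 ribosome biogenesis genes, 51 were lower and 13 higher than in WT with a median of −0.32, and 28 lower and 0 higher were particular. *UTP21*, a subunit of the small subunit processome, had 129, 103, 129 and 125 normalized CPM in *elp3 deg1*, means of 156 to 185 in the other mutants, and 194, 192, 195 and 188 in WT (log2 fold change −0.66, SE 0.06, edgeR adjusted p = 1.9e-12). *UTP9* and *NOC4*, of the same assembly path, the helicase gene *DBP8* and the rRNA methyltransferase gene *DIM1* had log2 fold changes of −0.68, −0.62, −0.68 and −0.62. *SPB4*, a helicase for the large subunit, had the lowest value among the particular ones (−1.10), but it is the neighbour of the deleted *DEG1*, and *MSH4* beyond it, looked up for that reason, had −1.32. The part of the deletion in these levels was not tested. Of 19 genes of the RNA polymerase III apparatus, 7 were lower and 4 higher than in WT with a median of −0.14. Over all genes, 33.5% were lower and 33.1% higher, so the lower count here was near the common share. The particular ones of the 19 genes were *RPC53*, *RET1*, *RPC82* and *RPO31* (−0.92, −0.78, −0.61 and −0.31). Of the cytosolic ribosomal protein genes, 49 of 82 of the large subunit and 34 of 57 of the small subunit were higher than in WT, and 15 and 5 lower, but in these groups together only 1 was particular and higher (*RPL9B*, 0.77) and 2 lower (*RPP2B*, −0.87, and *RPL23A*, −0.21). *HYP2*, translation factor eIF5A, had 626, 657, 656 and 648 in *elp3 deg1*, means of 298 to 342 in the other mutants, and 255, 240, 243 and 239 in WT. The PAC motif was present in 72 of the 80 promoters (90.0%), in 157 of the 382 promoters of particular lower genes (41.1%) and in 107 of the 521 of particular higher genes (20.5%).

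Some of the highest particular genes fell outside these pathways. *COS12*, of the subtelomeric *COS* family whose proteins aid sorting of membrane proteins into the vacuole, had 52.4, 53.1, 49.8 and 56.0 normalized CPM in *elp3 deg1*, means of 27.3 in *urm1 deg1*, 6.62 in *elp3 tcd1* and 3.33 in *urm1 tcd1*, and 3.02, 1.45, 5.35 and 2.85 in WT. Its family members share sequence, which leaves the assignment of reads uncertain, and 4 of 9 tested members were particular and higher. *SRL1*, a cell wall mannoprotein, had 193, 169, 195 and 212 in *elp3 deg1*, means of 91.8 in *urm1 deg1*, 58.3 in *elp3 tcd1* and 9.87 in *urm1 tcd1*, and 17.6, 17.1, 20 and 20.8 in WT. *APE1*, the vacuolar aminopeptidase that is the cargo of selective autophagy, had 756, 791, 720 and 721 in *elp3 deg1*, means of 218 to 408 in the other mutants, and 88.2, 95.6, 85.8 and 81.9 in WT (log2 fold change 3.09, SE 0.05, edgeR adjusted p = 1.0e-32). Its receptor gene *ATG19* and the scaffold gene *ATG17* had log2 fold changes of 1.09 and 1.6. *BNA5*, kynureninase of the NAD synthesis pathway, averaged 164 ± 7.44 in *elp3 deg1* and 32.6 ± 3.11 in WT. *ECM13* and *YLR297W*, genes without an assigned role here, had 2.59 and 2.37. *DSE4*, the glucanase with which daughter cells separate, averaged 477 ± 18.3 in *elp3 deg1*, 118 to 260 in the other mutants and 137 ± 3.27 in WT. Of the 13 daughter-specific and separation genes, 13 were higher than in WT, but only 1 was particular. Against *urm1 deg1*, 11 of them were lower and 2 higher. *MUM3*, named for its part in spore formation, averaged 7.37 ± 1.29 in *elp3 deg1* and 64.2 ± 6.27 in WT.

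Few genes of the tRNA modification pathways were particular, and 9.03% of all genes were so and higher and 6.66% lower. Of the 14 Elongator genes, 6 were lower and 3 higher than in WT, against 33.5% and 33.1% of all genes. In each direction 1 of the 14 was particular, which is near the common share. *KTI11*, a diphthamide and Elongator factor, had 46.7, 48.0, 58.4 and 45.6 normalized CPM in *elp3 deg1*, means of 64.9 to 102 in the other mutants, and 129, 119, 133 and 105 in WT, a log2 fold change of −1.29 (SE 0.08, edgeR adjusted p = 2.7e-16). The phosphatase gene *SIT4* was higher by 0.52. Of the 5 genes of the Urm1 pathway, *TUM1* (sulfur transfer) and *NCS2* (thiolation of the wobble uridine) were particular in opposite directions (0.34 and −0.33). Of the 8 genes that make threonylcarbamoyladenosine and its cyclic form, 1 was particular and lower. None of the 9 pseudouridine synthase genes and none of the 22 aminoacyl-tRNA synthetase genes was particular by edgeR. Of the 22, 17 were lower and 3 higher than in WT, against 33.5% and 33.1% of all genes.

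Signalling genes of the Ras and protein kinase A pathway differed in both directions. *PDE1*, the low-affinity cAMP phosphodiesterase, had 142, 155, 147 and 131 in *elp3 deg1* and 334, 353, 346 and 354 in WT, and its high-affinity counterpart *PDE2* averaged 362 ± 12.4 and 232 ± 11.3. *BCY1*, the inhibitory subunit of protein kinase A, had a log2 fold change of 0.70 and *RAS2* one of 0.38. Markers of stationary phase were higher than in WT in 17 of 26 cases, but 0 of the 26 was particular and higher, and 2 were particular and lower. *SPI1* had 83.8, 99.7, 81.9 and 85.3 in *elp3 deg1*, means of 121 to 482 in the other mutants, and 229, 237, 245 and 229 in WT. *YGP1* averaged 140 ± 7.16 in *elp3 deg1*, 484 to 1156 in the other mutants and 181 ± 17.1 in WT. *DDR2*, a stress-induced gene, averaged 115 ± 7.04 in *elp3 deg1*, 198 to 548 in the other mutants and 19.6 ± 5.03 in WT.

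Besides the particular genes, 85 of the 649 genes (11.1%) higher than in each other mutant were not called against WT and 38 were lower than in WT. Of the 525 (9.01%) lower than in each other mutant, 103 were not called against WT and 34 were higher. For these genes, *FET3*, *GAP1*, *MEP2*, *DDR2* and *OLE1* among them, the level in *elp3 deg1* lay at that of WT or between WT and the other mutants. Over the 59 lists, 17 held particular genes that were only higher, 15 only lower, 18 both, and 9 none.

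Codon use was compared between the particular genes and all genes because tRNA-Gln(UUG) reads CAA. The median share of CAA codons was 2.45% in the 521 higher protein-coding genes, 2.63% in the 382 lower ones and 2.55% in all 5593, and the shares of AAA codons were 3.53%, 4.39% and 4.12%. The 3 groups differed in length too, with medians of 342, 505 and 412 codons. These are descriptions without a test.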

How the data were processed

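Polyadenylated RNA of 20 yeast libraries was sequenced (stranded TruSeq mRNA kit, 11 PCR cycles). The deposited tables hold counts of reads for every gene, which the authors made by alignment with STAR 2.5.1b to R64. The file headers name featureCounts 1.4.6-p2 with strand setting 2, where the methods name htseq. No normalization or filter was applied to them. Each file listed 7126 genes. Of these, 6048 matched a RefSeq locus tag, 6036 with identical coordinates.

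Counts were tested in R 4.3.3 with edgeR 4.0.16 (TMM factors, filterByExpr at a minimum of 10 counts across all 20 libraries, quasi-likelihood test, Benjamini-Hochberg adjustment over 5828 genes, of which 4 are mitochondrial and left out of counts). Groups came from the sample labels. *elp3 deg1* was compared with WT and with each other mutant in 4 separate fits, with 3 libraries of each *tcd1* label. SE is the absolute log2 fold change over the square root of F. The biological coefficient of variation was 0.0317. The steps were tested on simulated data. DESeq2 1.42.0, other scalings, filters, thresholds, a replicate block and leaving out each library were alternatives. Python 3.11.15 with numpy 2.4.6, pandas 2.3.3 and matplotlib 3.10.9 was used, and limma 3.58.1 was loaded by edgeR.

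Genes named are the 12 highest and 12 lowest particular genes with at least 10 counts in every library of the higher group, up to 6 called members of each of 59 lists with the largest change (particular ones first), any member of lists of up to 20, and the deleted and marker genes. Genes outside this rule are marked. The comparison and the lists were chosen with earlier results of these data known. Sequences are from the RefSeq copy of R64. The study's own fold changes and other assays were not used here.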

Additional observations from a re-analysis of the deposited data

Results flagged for a closer look

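The mitochondrially encoded genes were left out of the comparisons. All those listed, 4 of them tested, together had a mean of 43.2 ± 11.5 CPM in *elp3 deg1* (35.8 to 60.2). In WT they had 13.9 ± 1.77 (11.7 to 16), and the groups did not overlap. The other mutants were also above WT, with 49.8 to 102 in *urm1 deg1*, 51.6 to 69.9 in *elp3 tcd1* and 38.5 to 73.6 in *urm1 tcd1*.

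Of 344 groups of 4 libraries checked for the named genes, 17 held a library far from the other 3, and chance gives about 1 in 20. In *elp3 deg1* these were replicate 2 for *ILV5* (4397 normalized CPM), *UTP21* (103), *URA5* (143), *SSE2* (152), *DBP8* (54) and *BCY1* (334), replicate 3 for *RPC53* (78.2) and *GND1* (1625), replicate 4 for *COX5A* (94) and replicate 1 for *OPI3* (2621). In WT they were replicate 4 for *TUM1* (78.2) and *PHO85* (89.6), replicate 2 for *ENO1* (1712) and *ARN2* (180), replicate 1 for *PDC1* (12913) and replicate 3 for *TSA1* (859) and *LHS1* (105).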

How the results depend on the processing

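With library totals as the only scale, 341 genes were particular and higher (314 of them shared with TMM) and 478 lower (298 shared), and 1119 higher and 2743 lower against *urm1 deg1* and 1091 and 2607 against *elp3 tcd1*. With all 4 libraries of both *tcd1* labels, 246 genes were particular and lower, 325 were lower than in each other mutant, 756 were higher and 705 lower than in *elp3 tcd1*, and 818 and 838 than in *urm1 tcd1*. Without *urm1 tcd1* in the rule, chosen after seeing the data, 623 were particular and lower. Requiring a log2 difference of 1 or more in size left 404 higher and 327 lower than WT, 24 and 29 particular, 29 and 48 apart from the other mutants, 196 and 256 against *urm1 deg1*, 153 and 286 against *elp3 tcd1* and 383 and 400 against *urm1 tcd1*. DESeq2 gave 1788 and 1772 against WT and 480 and 300 particular genes, all shared with edgeR. Leaving out 1 library at a time gave 1836 to 1915 higher and 1856 to 1916 lower than WT, and 498 to 528 and 334 to 380 particular. With a replicate block, 1924 were higher and 1942 lower than WT, and 513 and 355 were particular. Same-numbered libraries of both groups correlated at −0.03 to 0.03, none correlated best with its own number, and the numbers were not taken to pair them. In the call against WT, 0 of 172 named genes reversed under any alternative and 66 lost it under at least 1, 65 of them under the fold change threshold. Of the 144 named genes called particular, 55 were not so under at least 1 alternative, 44 with all *tcd1* libraries, 21 with library totals, 13 with DESeq2 and 22 on leaving out a library. The last were *RPC53*, *SIT4*, *PDC2*, *ATG19*, *RKI1*, *IDH2*, *PUP1*, *TUM1*, *FRE5*, *PDC5*, *ELP3*, *NOC4*, *RPL23A*, *FUI1*, *PHO5*, *CBF1*, *PUP3*, *FTR1*, *DBP8*, *ENO2*, *DAL3* and *HAC1*.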
